A study of Mus musculus with 8 samples.

Results

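Pharyngeal mesoderm was taken as every cell that the authors' combined annotation calls by that name. It held 1063 of 28723 cells (3.70%), of which 53 were among 8566 Eomes-KO cells and 1010 among 20157 WT host cells. All 1063 cells also carried pharyngeal mesoderm as their label from the original gastrulation atlas, and no other cell of the series did. The name could not be checked against Isl1, Tbx1, Tcf21 and Fgf10, which mark these cells, because gene counts were not analysed here. The check that could be made was against the extended atlas, where 928 of the 1063 cells (87.3%, 95% exact interval 85.1 to 89.2) mapped to a pharyngeal, cardiopharyngeal or heart muscle label. By genotype this was 35 of 53 Eomes-KO cells (66.0%, 51.7 to 78.5) and 893 of 1010 WT host cells (88.4%, 86.3 to 90.3), and these shares over pooled cells were not tested.

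The study asked what Eomes does in the mesoderm of the gastrulating mouse embryo by putting mutant and normal cells side by side in chimeric embryos. Male tdTomato+ embryonic stem cells (ESC) made null for Eomes were injected into WT C57BL/6 blastocysts, and the resulting embryos were pooled, about 4 to a tube, at roughly E8.5. Cells were sorted on the red fluorescent protein tdTomato, which host cells lack, into Eomes-KO (Eomes null, tdTomato+) and WT host (tdTomato−) fractions, and single-cell RNA-seq libraries were made with the 10x 3′ v3 kit. This gave 4 Eomes-KO and 4 WT host libraries, each of the 4 pools having its own mutant ESC clone. No library held injected WT ESC, so the loss of Eomes and the origin from ESC cannot be told apart. The mutant cells were male, whereas the host blastocysts were of both sexes by the study's methods, and the labels give no sex. The mutant cells also grew among WT neighbours, so their numbers are those of mutant cells in a mixed embryo. Below, a library is called by its genotype and its number of cells, which was 602, 1153, 3346 and 3465 for Eomes-KO and 2414, 3791, 5819 and 8133 for WT host. The libraries held between 19370600 and 66414390 UMIs (unique transcript molecules) in all.

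Pharyngeal mesoderm lies beside and beneath the foregut and forms the core of the pharyngeal arches. Its progenitors are shared between head muscle and heart: the second heart field (SHF) lies within it and adds cells to the growing heart tube, whereas the first heart field (FHF) forms the early heart crescent. Eomes, a T-box transcription factor of the primitive streak, acts upstream of Mesp1, the regulator that marks the earliest cardiac and cranial mesoderm.

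Pharyngeal mesoderm was scarce among Eomes-KO cells, but it was not missing from any library. The 4 Eomes-KO libraries held 6, 3, 16 and 28 such cells, in order of library size, which was 0.998%, 0.261%, 0.478% and 0.808% of their epiblast-derived cells. The 4 WT host libraries held 112, 198, 218 and 482, which was 4.68%, 5.27%, 4.23% and 6.04%. The groups did not overlap, and the lowest WT host library stood above the upper 95% exact limit of every Eomes-KO library (2.16% for the smallest, counting error only). In the edgeR quasi-likelihood test the log2 fold change was −3.03 (SE 0.423, n = 4 and 4, adjusted p = 1.49e-05), where 48.5% of the 33 cell types tested were called lower and 21.2% higher. The size of the change depended on the processing. It was −3.98 when only mesoderm cells formed the denominator, and −4.06 or −2.51 with the ratio or the poscounts size factors of DESeq2. It was −1.55 (SE 0.482, edgeR adjusted p = 0.00719) when the cells were instead those with pharyngeal mesoderm as their extended label, an alternative chosen after seeing the data.

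The extended atlas divides these cells further, and only 149 of the 1063 (14.0%) kept the name pharyngeal mesoderm there. They fell under 20 extended labels, of which 12 held at least 10 cells and were tested in a table of 44 labels. In that test 6 of the 12 labels (50%) were lower in Eomes-KO and none was higher, against 47.7% lower and 15.9% higher among all 44. The median log2 fold change of the 12 was −2.42 against −2.08 over all labels tested, and −1.78 with the labels that had no Eomes-KO cell set at their bound.

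Heart muscle labels held 1 Eomes-KO cell in all. Cardiomyocytes FHF 1, early muscle of the first heart field, held 0, 0, 1 and 0 Eomes-KO cells and 26, 37, 53 and 121 WT host cells. The single Eomes-KO cell lay in the library of 3346 cells. Over pooled cells the WT host share of epiblast-derived cells was 105 times the Eomes-KO share (95% exact interval 18.7 to 4173, counting error only). The edgeR log2 fold change was −6.26 (SE 0.715, adjusted p = 3.58e-06), and the label still passed without that library (adjusted p = 1.63e-05). Cardiomyocytes SHF 1, muscle added by the second heart field, was at 0 in all 4 Eomes-KO libraries and held 2, 5, 2 and 7 WT host cells. Set at 3 Eomes-KO cells in all, a chosen floor and no lower limit, its share would be 2.37-fold lower. The label was called lower (edgeR adjusted p = 0.0366). That call rested on few cells and was lost in 7 of 15 alternatives, among them TMM scaling (adjusted p = 0.0569) and leaving out the Eomes-KO library of 1153, 3346 or 3465 cells or the WT host library of 2414 cells (edgeR adjusted p from 0.0531 to 0.0956).

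Cardiopharyngeal progenitors, the shared precursors of heart and pharyngeal muscle, were also strongly reduced. The SHF group was the most abundant label of all, with 1, 1, 4 and 3 Eomes-KO cells against 41, 53, 83 and 154 WT host cells. Its log2 fold change was −3.93 (SE 0.462, edgeR adjusted p = 4.31e-06). The FHF group held 1, 0, 0 and 3 Eomes-KO cells and 16, 39, 26 and 54 WT host cells, a change of −3.82 (SE 0.735, edgeR adjusted p = 0.000307). Both calls held in all 17 alternatives run for them, although the FHF change was −3.19 without the Eomes-KO library of 3346 cells and −4.85 without that of 3465 cells.

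Anterior cardiopharyngeal progenitors held 2 Eomes-KO cells, both in the library of 3465 cells, and 30 WT host cells (3, 8, 7 and 12). The log2 fold change of −2.61 passed the threshold (SE 0.954, edgeR adjusted p = 0.0261), but 7 of 16 alternatives lost the call. Without the library of 3465 cells no Eomes-KO cell remained, and the fitted change of −5.48 (edgeR adjusted p = 0.0150) is then no measure of size. The alternatives that lost the call included TMM scaling (adjusted p = 0.0668), leaving out the Eomes-KO library of 1153 cells (adjusted p = 0.0531) or 3346 cells (0.117) and the WT host library of 2414 cells (0.0555) or 8133 cells (0.0587), all by edgeR. Cardiopharyngeal progenitors of no named field were at 0 in Eomes-KO and held 1, 9, 0 and 4 WT host cells. Set at 3 Eomes-KO cells in all, a chosen floor and no lower limit, their share would be 2.07-fold lower. They did not pass the test (edgeR adjusted p = 0.0972). They did in 2 alternatives, without the WT host library of 5819 cells, which had none of them (adjusted p = 0.0346), and when rare labels were kept in the table (adjusted p = 0.0415), both by edgeR.

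The cells named pharyngeal mesoderm by both atlases were the least reduced of the labels that passed. They numbered 1, 2, 6 and 10 in Eomes-KO and 10, 35, 21 and 64 in WT host. Over pooled cells the WT host share was 3.04 times the Eomes-KO share (95% exact interval 1.87 to 5.21, counting error only). The log2 fold change was −1.57 (SE 0.489, edgeR adjusted p = 0.0107). This call was lost with the poscounts size factors of DESeq2 (−0.87, adjusted p = 0.231) and among cells with a doublet score under 0.25 (−1.11, edgeR adjusted p = 0.128).

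**Figure D1:**
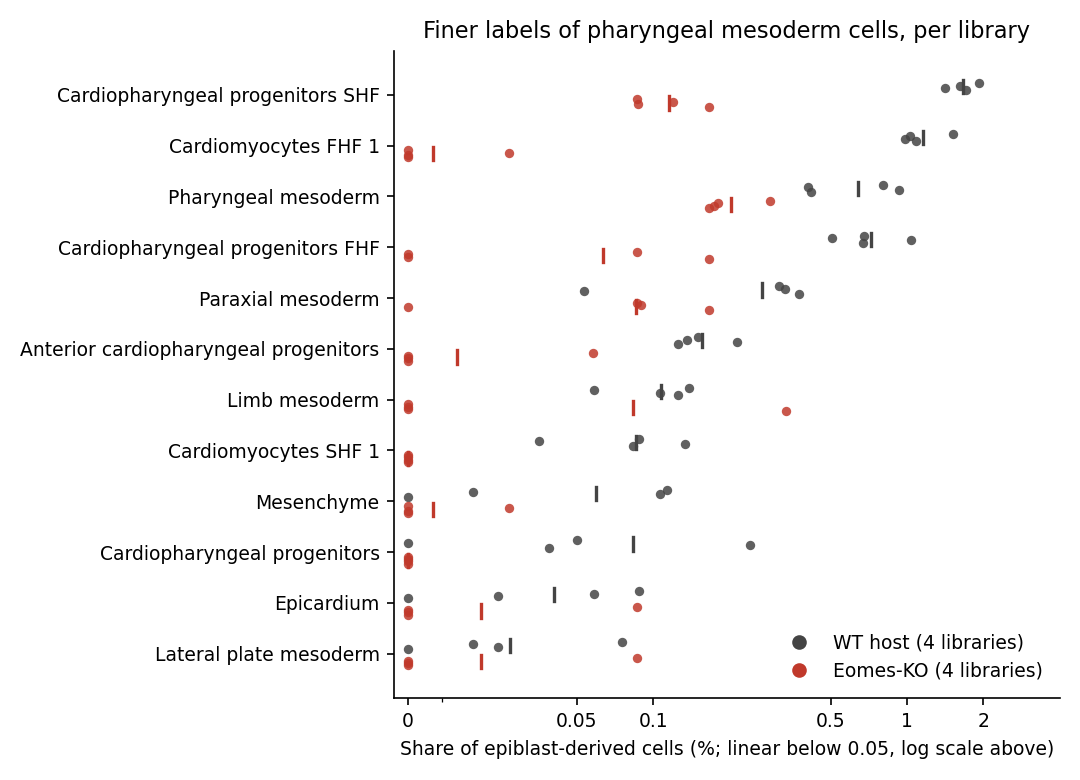
Share of epiblast-derived cells (%, horizontal axis, linear below 0.05 and logarithmic above) of pharyngeal mesoderm cells under each of the 12 extended labels with at least 10 cells, with a point per library and a bar at the mean of 4. The groups lie far apart for cardiopharyngeal progenitors SHF (9 against 331 cells) and cardiomyocytes FHF 1 (1 against 237). They meet or mix for paraxial mesoderm, cardiopharyngeal progenitors of no named field, limb mesoderm, mesenchyme, epicardium and lateral plate mesoderm.

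The other mesoderm labels did not pass the test. Cells under a paraxial mesoderm label, the source of somites and part of the head mesenchyme, numbered 1, 0, 3 and 3 in Eomes-KO and 9, 2, 17 and 25 in WT host (log2 fold change −1.68, SE 0.755, edgeR adjusted p = 0.0620). They passed in 3 alternatives: without the WT host library of 3791 cells, which had only 2 of them (−2.001, edgeR adjusted p = 0.00282), with the ratio size factors of DESeq2 (−2.19, adjusted p = 0.0352) and with a doublet score under 0.25 (−2.20, edgeR adjusted p = 0.0435). Among cells with at least 10000 UMIs the change was 0.026 (edgeR adjusted p = 0.987). Limb mesoderm had 2 Eomes-KO cells, both in the library of 602, and 21 WT host cells (adjusted p = 0.196), and leaving out that library gave −5.10 (adjusted p = 0.0222), both by edgeR. Mesenchyme (1 against 14 cells), epicardium (3 against 11) and lateral plate mesoderm (3 against 8) gave edgeR adjusted p of 0.186, 0.696 and 0.903. All 3 epicardium cells and all 3 lateral plate cells of Eomes-KO came from the library of 3465 cells. The remaining 8 labels held under 10 cells each and were not tested: in Eomes-KO they were 1 allantois and 1 kidney primordium cell, and in WT host 5 cells of embryo proper mesothelium and 5 labels with 1 cell each.

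Within the type, the shares of the labels were counted over the pooled cells of each genotype and per library. In WT host, heart muscle labels made up 25%, 21.2%, 25.2% and 26.6% of the pharyngeal mesoderm cells of a library, and cardiopharyngeal progenitors 54.5%, 55.1%, 53.2% and 46.5%. In Eomes-KO, 1 of 53 cells (1.89%, 95% exact interval 0.0478 to 10.1) had a heart muscle label and 15 (28.3%) a cardiopharyngeal one. The label pharyngeal mesoderm made up 19 of 53 Eomes-KO cells (35.8%, 23.1 to 50.2) against 130 of 1010 WT host cells (12.9%, 10.9 to 15.1), and all remaining labels 34.0% against 11.6%. This grouping of labels into roles was made after their counts were seen and was not tested.

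**Figure D2:**
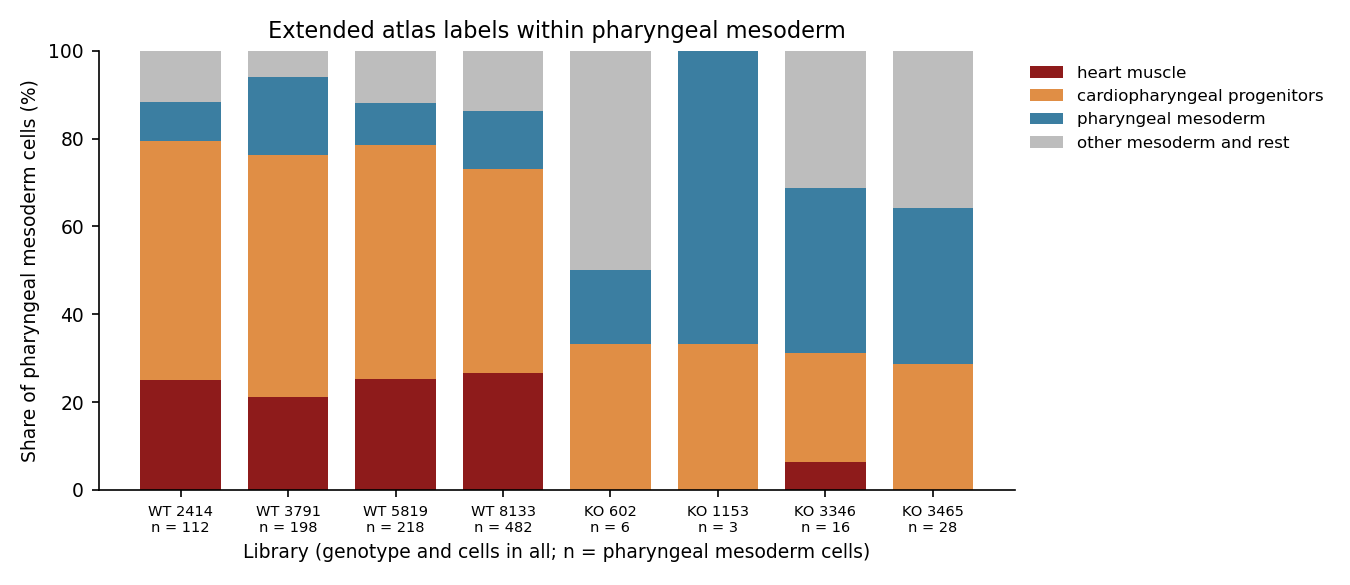
Stacked bars of the share of pharyngeal mesoderm cells (%) under extended labels of heart muscle, cardiopharyngeal progenitors, pharyngeal mesoderm and all others, for each of the 8 libraries, with the number of cells under each bar. The heart muscle band spans 21.2% to 26.6% in the WT host bars and appears in a single Eomes-KO bar, where it stands for 1 of 16 cells.

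The shares were tested label by label over libraries with an exact permutation test, which over 12 labels could pass only if at least 7 of them reached the smallest p, so that a lack of calls says little. The share of cardiomyocytes FHF 1 was 1.56% ± 3.13 (SD, n = 4) in Eomes-KO and 22.8% ± 2.87 in WT host, without overlap, and had the smallest p this design allows (exact permutation p = 0.0286, adjusted p = 0.171 over 12 labels). Cardiomyocytes SHF 1 gave the same p, with 0% against 1.67% ± 0.673. The label pharyngeal mesoderm was at 16.7%, 66.7%, 37.5% and 35.7% in Eomes-KO and at 8.93%, 17.7%, 9.63% and 13.3% in WT host, so the groups overlapped in 1 library each (exact permutation p = 0.0571, adjusted p = 0.229). Thus 0 of 12 labels passed, 2 had an unadjusted exact p under 0.05, and edgeR with the pharyngeal mesoderm cells as library size called 2: cardiomyocytes FHF 1 lower (log2 fold change −3.54, adjusted p = 0.00128) and the label pharyngeal mesoderm higher (1.49, adjusted p = 0.00678). The Eomes-KO shares of a library rest on 3 to 28 cells.

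Compared with related types, pharyngeal mesoderm was reduced less than cardiomyocytes and paraxial mesoderm, whereas lateral plate mesoderm was more abundant in Eomes-KO. Cardiomyocytes, the differentiated heart muscle type, numbered 0, 0, 1 and 1 in Eomes-KO and 51, 81, 90 and 201 in WT host. The log2 ratio of pharyngeal mesoderm to cardiomyocytes, with 0.5 added to both counts, was therefore higher in Eomes-KO (3.55 ± 0.597) than in WT host (1.24 ± 0.0730), a difference of 2.32 (exact permutation p = 0.0286, adjusted p = 0.0286 over 3 ratios). Both Eomes-KO libraries without a cardiomyocyte enter this ratio through the added value.

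Paraxial mesoderm numbered 1, 1, 4 and 5 in Eomes-KO and 135, 202, 333 and 404 in WT host. Its WT host cells included 268 with the extended label cranial mesoderm, and its Eomes-KO cells 0. Its ratio to pharyngeal mesoderm moved in the same way, from −0.163 ± 0.367 in WT host to 1.90 ± 0.493 in Eomes-KO for the log2 of pharyngeal over paraxial cells (difference 2.06, exact permutation p = 0.0286, adjusted p = 0.0286). Lateral plate mesoderm went the other way, with 67, 233, 816 and 803 Eomes-KO cells and 52, 149, 161 and 426 WT host cells. The log2 of pharyngeal over lateral plate cells was −4.97 ± 1.18 in Eomes-KO and 0.531 ± 0.397 in WT host (difference −5.50, exact permutation p = 0.0286, adjusted p = 0.0286). None of the 3 ratios overlapped between the groups, and 0.0286 is the smallest p that 4 against 4 libraries allow. The 3 types were chosen with earlier results of these data known, so these p-values only describe the separation. How many other types would separate in this way was not counted.

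The atlas stage of these cells, which is the stage of the atlas embryos they most resemble and not their age, was E8.25 or E8.5 for more of the Eomes-KO cells, as a share, than in WT host, although the library means did not pass the test. Of the 53 Eomes-KO cells, 1, 1, 7, 28 and 16 mapped to E7.5, E7.75, E8.0, E8.25 and E8.5, and of the 1010 WT host cells 9, 34, 341, 438 and 188. Cells at E8.25 or later thus made up 83.0% (95% exact interval 70.2 to 91.9) against 62.0% (58.9 to 65.0). By library these shares ran from 66.7% to 100% in Eomes-KO and from 48.6% to 79.3% in WT host, so the groups overlapped.

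The mean mapped stage per library was 8.28 ± 0.0675 days in Eomes-KO and 8.19 ± 0.0465 in WT host (difference 0.0947, exact permutation p = 0.0571, not past the threshold). Among cells with at least 10000 UMIs (34 Eomes-KO and 242 WT host cells) the difference was 0.0278 (exact permutation p = 0.743). Set against the other epiblast-derived cells of the same library, Eomes-KO pharyngeal mesoderm was later by 0.219, 0.133, 0.0110 and 0.132 days, whereas WT host pharyngeal mesoderm was earlier in all 4 libraries, with a mean difference of −0.0404 ± 0.0125. These differences did not overlap (exact permutation p = 0.0286), but the other cells of a library differ in type between the genotypes.

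The mapped stage differed between the finer labels. In WT host, 48.0% of cardiopharyngeal progenitors SHF and 51.5% of cardiomyocytes FHF 1 mapped to E8.25 or later. So did 80.8% of the cells with the label pharyngeal mesoderm, 94.8% of cardiopharyngeal progenitors FHF and 11.3% of the cells under paraxial mesoderm. In Eomes-KO these shares were, in the same order, 55.6% of 9 cells, 100% of 1, 100% of 19, 100% of 4 and 42.9% of 7. Of the Eomes-KO and the WT host cells, 17.0% and 32.8% were SHF progenitors, and 1.89% and 23.5% were cardiomyocytes FHF 1. The label pharyngeal mesoderm made up 35.8% and 12.9%, FHF progenitors 7.55% and 13.4%, and paraxial mesoderm 13.2% and 5.25%. The label pharyngeal mesoderm taken alone was an alternative chosen after seeing the data. Within it the mean stage per library was 8.30 ± 0.0612 days in Eomes-KO and 8.28 ± 0.0565 in WT host (exact permutation p = 0.657). The Eomes-KO means rest on 1, 2, 6 and 10 cells. So few cells cannot decide the part of the finer labels in the stage difference, which was not tested.

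**Figure D3:**
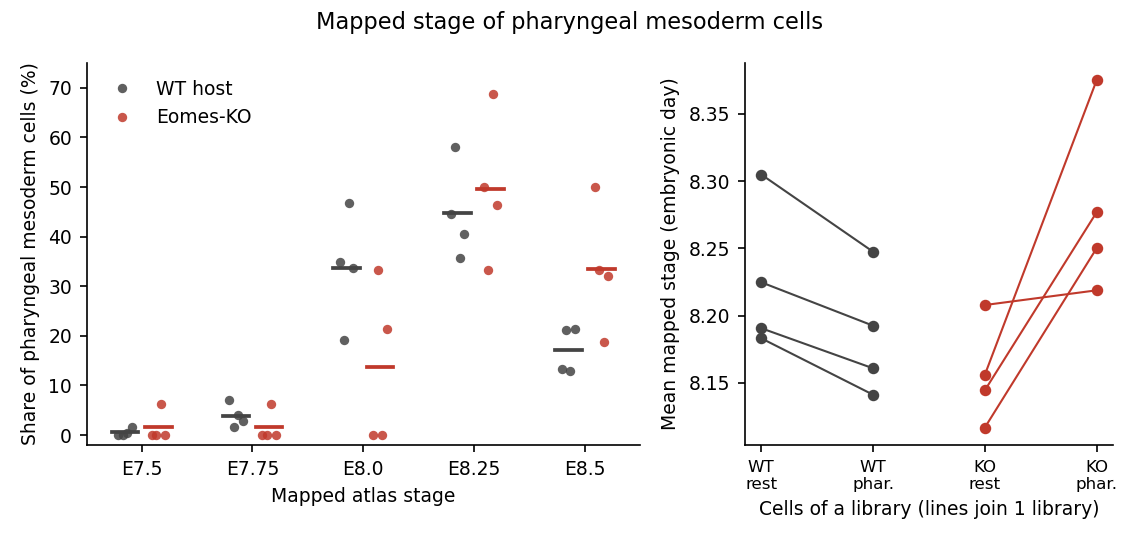
Left, share of pharyngeal mesoderm cells (%) at each mapped atlas stage, with a point per library and a bar at the mean of 4; right, mean mapped stage (embryonic day) of pharyngeal mesoderm (phar.) and of the other epiblast-derived cells (rest), with a line joining the values of each library. All 4 Eomes-KO lines go up, by 0.0110 to 0.219 days, and all 4 WT host lines go down.

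The scores of the original label in Eomes-KO cells were lower in all 4 libraries than in any WT host library, but not past the threshold after adjustment. The label score says how many of a cell's 15 nearest atlas neighbours bear the label it was given, as a fraction. For the original label its mean in Eomes-KO was 0.767, 0.778, 0.625 and 0.698, below the 0.880, 0.883, 0.882 and 0.860 of WT host, without overlap. The difference of −0.160 had the smallest p that the design allows, adjusted over 3 scores (exact permutation p = 0.0286, adjusted p = 0.0857). All 15 neighbours carried the label for 4 of 53 Eomes-KO cells (7.55%, 95% exact interval 2.09 to 18.2) and 461 of 1010 WT host cells (45.6%, 42.5 to 48.8). A score under 0.5 was found in 10 Eomes-KO cells (18.9%) and 28 WT host cells (2.77%).

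The other epiblast-derived cells had mean scores of 0.826 to 0.842 per library in Eomes-KO and 0.859 to 0.877 in WT host. Pharyngeal mesoderm differed from them by −0.116 ± 0.0705 in Eomes-KO and by 0.00976 ± 0.00757 in WT host (exact permutation p = 0.0286, adjusted p = 0.0857). The scores of the extended label (0.533 ± 0.0761 against 0.633 ± 0.00719) and of the stage (0.526 ± 0.0392 against 0.570 ± 0.0156) overlapped between the groups, with an adjusted exact permutation p of 0.143 for each. In total 0 of 3 scores passed by the exact permutation test and 1 had an unadjusted p under 0.05, and no other tool was run on them. A lone score at the smallest exact p could not pass after adjustment over 3, so the lack of calls says little.

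The score of the original label also differed between the finer labels, and their part in the difference between genotypes was not tested. Among WT host cells the original label scored 0.927 in cardiopharyngeal progenitors SHF and 0.885 in cardiomyocytes FHF 1, but 0.810 in cells with the extended label pharyngeal mesoderm and 0.707 in those with paraxial mesoderm. In Eomes-KO these labels scored, in the same order, 0.733 (9 cells), 0.600 (1 cell), 0.730 (19 cells) and 0.619 (7 cells). Limb mesoderm went the other way, with 0.667 in Eomes-KO (2 cells) and 0.619 in WT host. Within the extended label pharyngeal mesoderm the library means were 0.751 ± 0.0814 and 0.800 ± 0.0286 (exact permutation p = 0.286, adjusted p = 0.429). There the Eomes-KO means rest on 1, 2, 6 and 10 cells. Removing the cells with a score under 0.5 left the abundance change at −3.24 (SE 0.463, edgeR adjusted p = 5.71e-06).

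**Figure D4:**
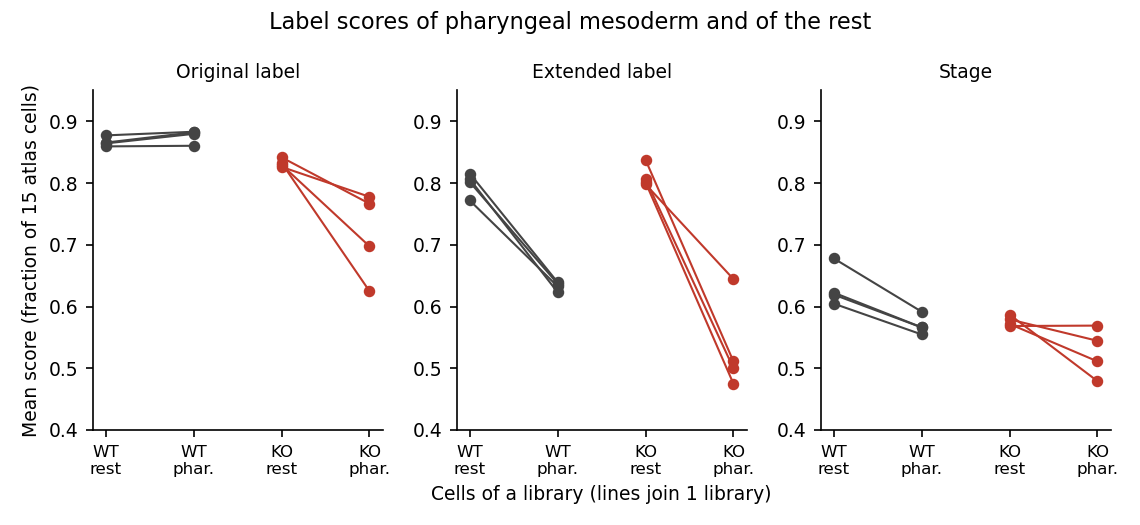
Mean score (fraction of the 15 nearest atlas cells) of the original label, the extended label and the stage, for pharyngeal mesoderm (phar.) and for the other epiblast-derived cells (rest), with a line joining the values of each library; the vertical axis starts at 0.4. For the original label the Eomes-KO lines fall to between 0.625 and 0.778, whereas the WT host lines stay between 0.859 and 0.883.

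On the atlas map, the nearest atlas cells of both genotypes lay in one region. The 53 Eomes-KO cells had 52 distinct nearest atlas cells and the 1010 WT host cells had 802, with 17 in common. The median position of the Eomes-KO cells was −0.250 on the first axis and 7.93 on the second, against 0.676 and 8.70 in WT host, with the middle quartiles of the first axis at −0.856 to 0.629 and −0.0643 to 1.20. On the first axis 3 Eomes-KO cells and 1 WT host cell lay left of −4. Distances on such a map have no unit and were not tested.

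**Figure D5:**
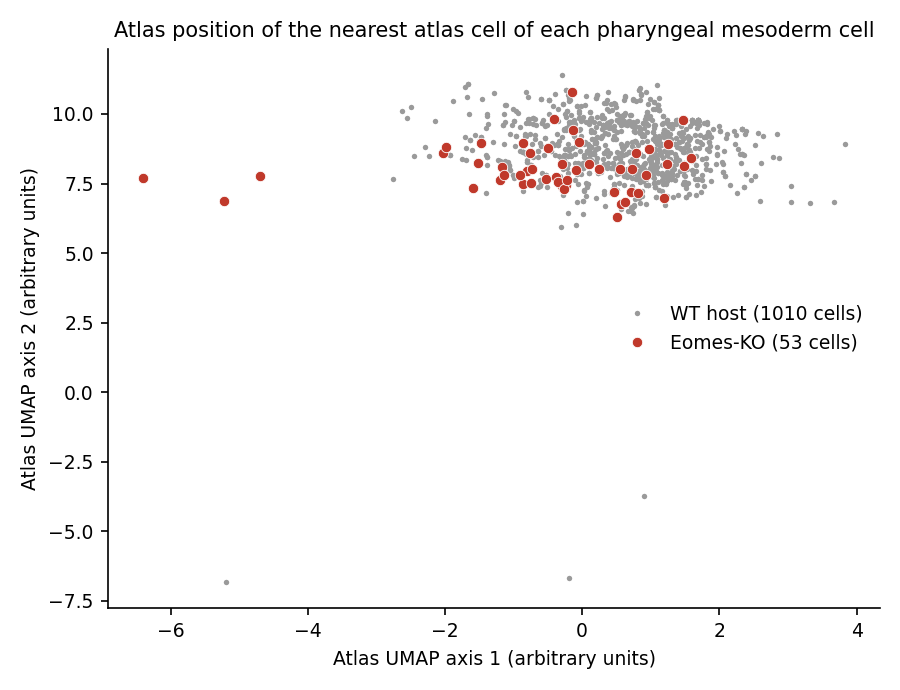
Position on the atlas UMAP (arbitrary units on both axes) of the nearest atlas cell of each of the 53 Eomes-KO and 1010 WT host pharyngeal mesoderm cells. The Eomes-KO points lie mostly in the lower left of the WT host cloud, 3 of them far to its left, and 3 WT host points lie below 0 on the second axis.

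Depth per cell varied between libraries of both genotypes. Pharyngeal mesoderm cells had a median of 37688, 22938, 15496.5 and 8233 UMIs in Eomes-KO and of 7816.5, 10081.5, 10208 and 4896.5 in WT host, and the other cells of each library followed (32551, 19296, 17000 and 8902 against 8389, 10775.5, 10854 and 5125.5). The groups overlapped (exact permutation p = 0.0857, adjusted p = 0.143 on log2 medians). The median ribosomal percent was 26.2 ± 0.572 in Eomes-KO and 24.6 ± 0.423 in WT host, without overlap (exact permutation p = 0.0286, adjusted p = 0.143). The median mitochondrial percent (1.87 ± 0.399 against 1.82 ± 0.207) and doublet score (0.211 ± 0.0654 against 0.216 ± 0.0170) overlapped.

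Of the 5 quality measures 0 passed by the exact permutation test and 1 had an unadjusted p under 0.05. A lone measure at the smallest exact p could not pass after adjustment over 5, so this lack of calls says little. Relative to the rest of the library, the doublet score of pharyngeal mesoderm was higher in all 4 WT host libraries (0.0413 ± 0.0144). In Eomes-KO the mean difference was −0.0188 ± 0.0202, with 0.005 in the library of 602 cells. The groups did not overlap (exact permutation p = 0.0286, adjusted p = 0.0714). Cells with a doublet score under 0.25 (39 Eomes-KO and 600 WT host cells) gave an abundance change of −2.58 (SE 0.457), and cells with at least 10000 UMIs −2.66 (SE 0.689), both past the threshold by edgeR. No pharyngeal mesoderm cell shared its barcode with another, and 4 shared one with a cell of another type in another library.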

How the data were processed

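The data were a table of cells with no gene counts. The authors sorted the pools, ran Cell Ranger 6.0.1 against mm10 (both also in the submitters' processing notes), removed cells of low quality and doublets, and mapped each cell to an atlas of E7.5 to E8.5. The deposited counts give each cell's UMI total as it came from the counting, with no scaling. Beside them the authors deposited the number of genes, the mitochondrial and ribosomal percent of UMIs, a doublet score and, for each transferred label, the score, a fraction of the 15 nearest atlas cells. The table holds 28723 cells, fewer than the study's methods state, and the reason is not given in the sources used here.

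A library was assigned to its genotype through the tdTomato status of its cells. Library names give no pool, so the embryo pool could not be a term. By the study's methods each library of a genotype came from its own pool, and every pair of them differed in composition beyond sampling noise. Cell numbers per library went into edgeR 4.0.16 (glmQLFit, glmQLFTest; R 4.3.3), where library size was the number of epiblast-derived cells and no scaling was added. Labels under 10 cells were left out, and p-values were adjusted by Benjamini-Hochberg over the whole table (33 combined labels, or 44 with pharyngeal mesoderm split by extended label), with a threshold of 0.05. Each SE is the log2 fold change over the root of F. Measures per library (means of scores and stage, medians of quality) were compared by two-sided exact permutation of 4 against 4 libraries (70 arrangements). Intervals are exact (Clopper-Pearson for shares, 95%) and cover counting error only, and 0 cells were read against a floor of 3. Named were all extended labels with at least 10 cells or an Eomes-KO cell, all stages, and 3 like types. Alternatives were TMM, DESeq2 1.42.0, limma 3.58.1, other denominators, filters and label sets, and each library left out. The members, lists and like types were chosen with earlier results of these data known.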

Additional observations from a re-analysis of the deposited data

Results flagged for a closer look

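In 8 of 50 groups of 4 libraries checked, 1 library stood far from the other 3. Chance flags about 1 in 20 such groups, and a share that is 0 in 3 libraries is flagged whatever the size of the last value. In Eomes-KO these were shares of the pharyngeal mesoderm cells that rest on 1 to 3 cells: limb mesoderm at 33.3% in the library of 602 cells, cardiomyocytes FHF 1 and mesenchyme at 6.25% each in the library of 3346 cells, and anterior cardiopharyngeal progenitors at 7.14% and epicardium and lateral plate mesoderm at 10.7% each in the library of 3465 cells. In WT host they were the mean original label score of 0.860 in the library of 8133 cells and the log2 ratio of pharyngeal mesoderm to cardiomyocytes of 1.13 in the library of 2414 cells.

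The change of pharyngeal mesoderm between genotypes differed from that of each related type by the test of the ratio itself (exact permutation p = 0.0286 for each). The related types were chosen with earlier results of these data known, so these p-values are no independent support. The difference on the log2 scale was 2.32 against cardiomyocytes, 2.06 against paraxial mesoderm and −5.50 against lateral plate mesoderm. What lies behind these differences was not tested.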

How the results depend on the processing

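The lower abundance of pharyngeal mesoderm kept its direction and passed the threshold in all 20 alternatives, from −4.06 to −1.55, and from −3.26 to −2.81 without 1 library. Scaling moved the median log2 change of the 33 labels by −0.14 (TMM), −0.90 (DESeq2 ratio) and 0.61 (poscounts), and of the 44 labels by 0.15, −0.51 and 0.76. Of the finer labels, 6 were called lower, 3 with DESeq2 poscounts, and 4 to 7 elsewhere. Within the type, edgeR called 2 labels where the exact test called 0. Set against the main result, 503 alternatives were rated the same, 40 lost and 8 gained a call, 27 changed direction and 2 counts of calls moved. The 503 include counts of called labels that were rated the same without being equal, such as 4 or 7 labels lower against 6. No paired analysis was possible because the library names do not give the embryo pool. Few Eomes-KO cells (3 to 28 a library) set the precision, and without a library the smallest exact p is 0.0571, so the ratios to related types could not pass: 2.09 to 2.57 for cardiomyocytes, 1.90 to 2.28 for paraxial mesoderm and −6.03 to −5.14 for lateral plate mesoderm.

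Changes of direction fell on values that had not passed the threshold. The log2 change of epicardium was 0.17 with poscounts, 0.0086 with limma and −3.96 to 0.013 without 1 library. That of lateral plate mesoderm was 0.083 with TMM, 0.65 with poscounts, 0.37 with limma and −0.37 to 0.44 without 1 library, and that of paraxial mesoderm 0.026 with at least 10000 UMIs. Differences in share (percentage points) reversed for anterior cardiopharyngeal progenitors with at least 10000 UMIs (3.47) and in edgeR within the type (log2 0.24), and with a doublet score under 0.25 for cardiopharyngeal progenitors SHF (4.19), mesenchyme (−1.63) and paraxial mesoderm (−1.40). Without 1 library these differences ranged from −0.833 to 2.74 for epicardium, −0.552 to 3.02 for lateral plate mesoderm, −2.09 to 9.02 for limb mesoderm and −1.09 to 0.997 for mesenchyme. The extended label score differed by 0.0548 within the extended label pharyngeal mesoderm. The mitochondrial percent differed by −0.0113 with at least 10000 UMIs and by −0.0688 to 0.181 without 1 library, the ribosomal percent by −0.346 with a doublet score under 0.25, and the doublet score by 0.0025 under that limit and by −0.0329 to 0.0154 without 1 library. The cause of these changes was not tested.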

Other observations

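The extended labels that divide pharyngeal mesoderm reached into other cell types of the combined annotation. Of 361 WT host cells with the extended label cardiopharyngeal progenitors SHF, 30 were paraxial mesoderm by the combined label, and so were 50 of 80 anterior cardiopharyngeal progenitors. No Eomes-KO cell of these labels lay outside pharyngeal mesoderm, where 9 and 2 were found. Cardiomyocytes FHF 1 held 352 WT host cells, of which 237 were pharyngeal mesoderm, 98 cardiomyocytes and 17 mesenchyme, and its 1 Eomes-KO cell was pharyngeal mesoderm. Cardiomyocytes SHF 1 held 162 WT host cells, 146 of them cardiomyocytes, and no Eomes-KO cell.

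The extended label pharyngeal mesoderm held 21 Eomes-KO and 144 WT host cells, of which 2 and 14 lay outside the combined type, in intermediate mesoderm (1 and 6), lateral plate mesoderm (1 and 3), mesenchyme (0 and 4) and surface ectoderm (0 and 1). The later FHF 2 and SHF 2 cardiomyocyte labels held 129 and 48 WT host cells, none of them in pharyngeal mesoderm, and 2 and 0 Eomes-KO cells.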
